A study of Rattus norvegicus with 15 samples.

Results

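The microRNAs (miRNAs) miR-199a and miR-214 are described here in rat heart, across control, diabetic and glucose-fluctuating animals. They were taken as the array features named rno-miR-199a-5p, rno-miR-199a-3p and rno-miR-214, with every probe of each, which gave 3 of the 350 rat miRNAs on the array. All 3 were above background on all 15 arrays. They are therefore also among the 165 miRNAs that were bright enough to be tested.

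The series measured hearts from Sprague-Dawley rats, all male, with 5 one-colour arrays for each of 3 groups, to ask how swings of plasma glucose differ from steadily high glucose. Control rats received vehicle (Veh). Diabetic rats (DM) received streptozotocin, a toxin of the insulin-producing cells, into a tail vein at 60 mg/kg, and their plasma glucose was above 300 mg/dL. The third group (GF, for glucose fluctuation) was made diabetic in the same way, then starved over 24 h, with insulin injected into the peritoneum at 0.5 IU/kg. Fasting, insulin and swings of glucose occur together in GF and cannot be told apart. Ages, and whether each array held a separate animal, are not given in the sources used here, so the p-values reflect the spread between samples as deposited, part of which may be technical.

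A miRNA is a short RNA that guides a silencing complex to messenger RNAs, mainly through its seed, the bases 2 to 8 from its 5′ end. The hairpin of miR-199a yields 2 mature arms, 5p and 3p, that have different seeds and so different targets. In the heart, miR-199a-5p is known to repress Hif1a and Sirt1 in cardiac muscle cells and to be lost in hypoxia, and miR-199a-3p is known for promoting proliferation of cardiac muscle cells. miR-214 is known to be raised in stressed and failing hearts and to repress the sodium-calcium exchanger Slc8a1. In mammals the hairpins of Mir199a2 and Mir214 are made from a long noncoding RNA on the opposite strand of the gene Dnm3. Both miR-199a and miR-214 are abundant in fibroblasts and other mesenchymal cells.

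The mature sequences are shown because the seeds tell which members could share targets, and whether a probe could face a close relative. They are from RefSeq on the GRCr8 assembly, 5′ to 3′, with the seed in capitals.
miR-199a-5p: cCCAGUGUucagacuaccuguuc
miR-199a-3p: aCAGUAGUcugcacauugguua
miR-214-3p: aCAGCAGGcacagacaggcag
The mature miR-199a-5p lies at chr13:77116255-77116277, miR-199a-3p at chr13:77116294-77116315 and miR-214-3p at chr13:77121713-77121733, all on the plus strand. Between the end of miR-199a-3p and the start of miR-214-3p lie 5397 bases. In the RefSeq gene table Mir199a2 and Mir214 lie within the span of Dnm3, and Mir3120 overlaps Mir214. The array name rno-miR-214 carries no arm, and the sequence printed is that of the 3p arm, to which the unsuffixed name was given in older nomenclature. The probe sequences were not used here. The names of the 2 arms of miR-199a matched RefSeq exactly.

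No 2 members have the same seed. The seeds of miR-199a-3p and miR-214-3p are identical at 5 of 7 positions, those of the 2 arms of miR-199a at 3 of 7, and those of miR-214-3p and miR-199a-5p at 2 of 7. Among the 724 mature sequences in the RefSeq table each of the 3 seeds occurs 1 time, so no other miRNA of that table shares a seed with a member.

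The RefSeq hairpin of Mir214 (chr13:77121645-77121752, plus strand) is shown with the 3p arm in capitals, since it places the measured arm on the side of the stem that ends the precursor.
Mir214 hairpin: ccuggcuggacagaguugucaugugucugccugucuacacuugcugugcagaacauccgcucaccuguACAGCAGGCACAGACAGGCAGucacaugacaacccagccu

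Signals are given as log2 of the processed signal of the brighter probe of a miRNA, scaled to each array's 75th percentile over 254 probes above background everywhere. In 5 pairs of arrays, each pair within a group, the differences were smaller than the error stated by the scanner software (reduced chi-square from 0.243 to 0.630 over 156 miRNAs). Each such pair was averaged and counted as 1 sample, which left 4 Veh, 3 DM and 3 GF samples. The arrays of each pair lay on different slides, so values given below within slide 1 and within slide 2 are not independent. A sample such as GF 2+4 is the mean of the arrays with those replicate numbers. Veh 5 lay nearer to DM 1, with a reduced chi-square of 1.15, than to the other control arrays (3.25 to 4.09), so comparisons with Veh are also given without it. The 5 muscle miRNAs that mark heart were all above background. Of the 6 miRNAs of liver, nerve and islets, 4 (miR-122, miR-124, miR-375 and miR-7b) were at the floor of 4.31 in every group mean, while miR-9 (5.07 in Veh) and miR-7a (6.34) were above it. The 75th percentile itself ran from 1749 to 3422 over the arrays.

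Signal strength differed between the members' brighter probes, each of which was above background on all 15 arrays. Before scaling, the brighter probe of miR-199a-3p read from 2568 to 4504 over the arrays, that of miR-199a-5p from 388 to 762 and that of miR-214 from 277 to 494. Each probe was printed on 10 spots. For the brighter probes the median coefficient of variation between spots was 7.16% for miR-199a-3p, 5.59% for miR-199a-5p and 9.71% for miR-214. For the dimmer second probe of miR-199a-5p it reached 34.3% on DM 3, at a signal of 53.3. Levels of different probes depend on their labelling and binding and are not compared as amounts of RNA. Between the 2 arrays of a close pair the members differed by a median of 0.157 (miR-199a-5p), 0.141 (miR-199a-3p) and 0.0412 (miR-214) on the log2 scale, with a maximum of 0.217.

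All 3 members had their lowest group mean in GF hearts, and none passed the test against control over distinct samples. The arm miR-199a-5p, the repressor of Hif1a and Sirt1, read 9.15 (Veh 1+3), 9.18 (Veh 2), 9.20 (Veh 4) and 9.53 (Veh 5) on the log2 scale in control hearts. It read 9.36 (DM 1), 9.32 (DM 2+4) and 8.83 (DM 3+5) in diabetic hearts, and 9.05 (GF 1+5), 8.58 (GF 2+4) and 8.73 (GF 6) in GF hearts. Every GF sample lay below every control sample, while DM 3+5 lay among the GF samples and the other DM samples lay within the control range. The means were 9.26 ± 0.18 (SD, n = 4) in Veh, 9.17 ± 0.30 (SD, n = 3) in DM hearts and 8.78 ± 0.24 (SD, n = 3) in GF.

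The other arm, miR-199a-3p, read 11.80 (Veh 1+3), 11.82 (Veh 2), 11.82 (Veh 4) and 11.99 (Veh 5) in control hearts. It read 11.92 (DM 1), 11.87 (DM 2+4) and 11.58 (DM 3+5) in diabetic hearts, and 11.71 (GF 1+5), 11.27 (GF 2+4) and 11.42 (GF 6) in GF hearts. The samples stood in the same order as for miR-199a-5p, again with every GF sample below every control sample and DM 3+5 within the GF range. The means were 11.86 ± 0.09 (SD, n = 4) in Veh, 11.79 ± 0.18 (SD, n = 3) in DM hearts and 11.47 ± 0.22 (SD, n = 3) in GF.

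For miR-214, the regulator of calcium handling, the control samples read 8.72 (Veh 1+3), 8.30 (Veh 2), 8.73 (Veh 4) and 8.94 (Veh 5). The diabetic samples read 8.69 (DM 1), 8.78 (DM 2+4) and 8.37 (DM 3+5), and the GF samples 8.45 (GF 1+5), 7.71 (GF 2+4) and 8.16 (GF 6). Here the groups overlapped, because Veh 2 lay below GF 1+5, and so did DM 3+5. The means were 8.67 ± 0.27 (SD, n = 4) in Veh, 8.61 ± 0.21 (SD, n = 3) in DM hearts and 8.11 ± 0.37 (SD, n = 3) in GF. Veh and DM, the neighbours in the order of means, differed by less than their SDs for each member.

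**Figure D1:**
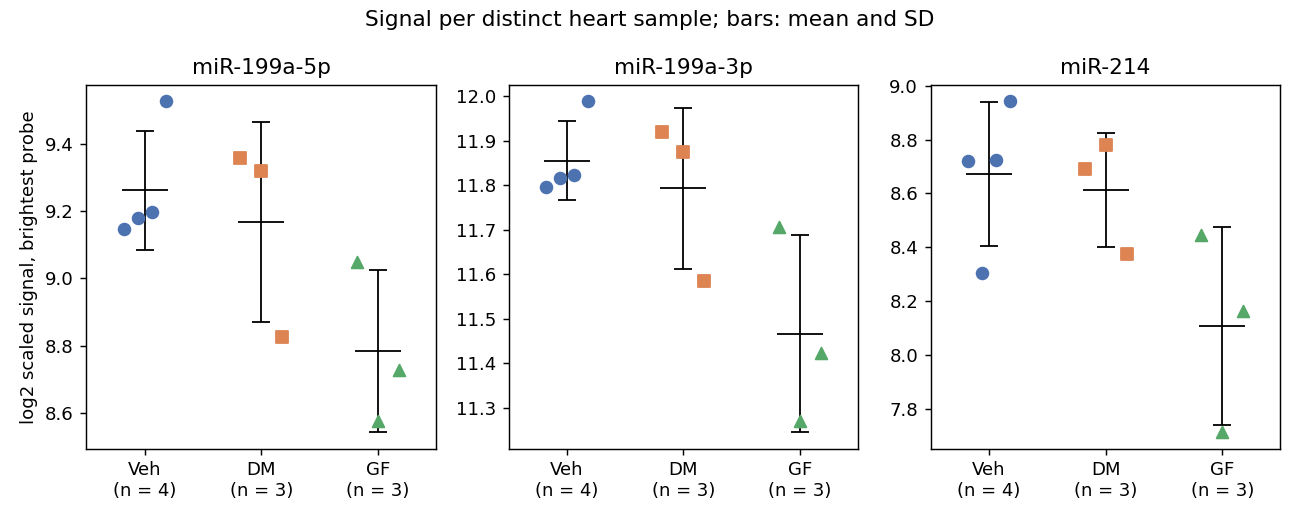
Log2 scaled signal (y axis) of the brighter probe of miR-199a-5p, miR-199a-3p and miR-214 in the distinct heart samples of the Veh (4), DM (3) and GF (3) groups; points are samples and bars show the mean and SD. The GF points lie lowest on average in each panel, and only for miR-214 does a control sample (8.30) fall below a GF sample (8.45).

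The comparison of GF with control hearts asks how the members differ in diabetes with glucose fluctuation. The difference of miR-199a-3p was -0.39 on the log2 scale (SE 0.12, 95% interval -0.66 to -0.12), a 1.31-fold lower mean, with a limma adjusted p of 0.0733. For miR-199a-5p it was -0.48 (SE 0.16, interval -0.85 to -0.11), 1.39-fold lower, with a limma adjusted p of 0.0887. For miR-214 it was -0.57 (SE 0.20, interval -1.01 to -0.13), 1.48-fold lower, with a limma adjusted p of 0.0887. All 3 GF samples lay below the control mean for each member. Thus 0 of the 3 members passed over distinct samples, where 4.85% of the 165 tested miRNAs passed as lower in GF. The groups were separate, with all GF samples below all controls, for 2 of the 3 members and for 19.4% of the tested miRNAs. Fewer cells that make a miRNA and less of it per cell cannot be told apart in heart tissue RNA.

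The call depends on how the arrays are counted, and on other choices given below. With all 15 arrays taken as independent, all 3 members passed: miR-199a-5p at -0.44 (limma adjusted p = 0.0265), miR-199a-3p at -0.37 (limma adjusted p = 0.0179) and miR-214 at -0.59 (limma adjusted p = 0.0149). In that count 23.6% of the tested miRNAs passed as lower in GF. The separation of the groups also rests on averaging: over single arrays 0 of the 3 members had every GF array below every Veh array, against 13.3% of the tested miRNAs. For miR-199a-5p GF 5 (9.15) lay above Veh 3 (9.05), and for miR-199a-3p GF 1 (11.72) lay above Veh 3 (11.69). Among the distinct-sample differences miR-214 stood 10th from the lowest of 165, miR-199a-5p 17th and miR-199a-3p 21st, and the median over all tested miRNAs was -0.05. Without Veh 5 the differences were -0.39 (miR-199a-5p), -0.34 (miR-199a-3p) and -0.48 (miR-214), with limma adjusted p from 0.10 to 0.12. Without GF 2+4, the lowest sample of all 3 members, they were -0.37, -0.29 and -0.37, with limma adjusted p from 0.272 to 0.303.

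**Figure D2:**
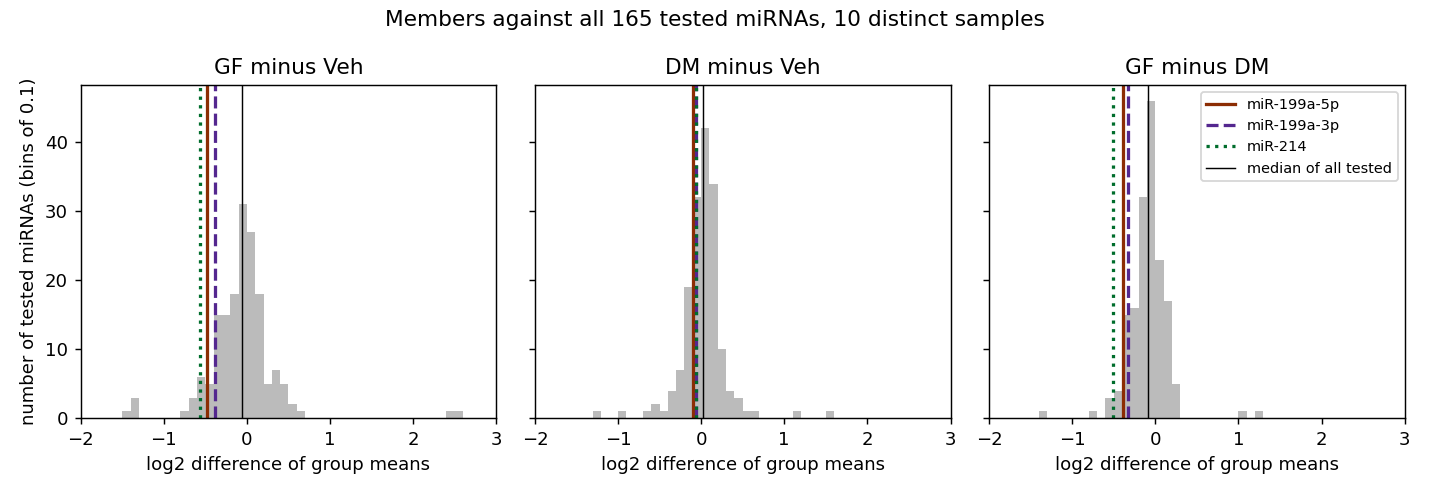
Histograms of the log2 difference of group means (x axis) over the 165 tested miRNAs (y axis, number per bin of 0.1) for GF minus Veh, DM minus Veh and GF minus DM; coloured lines mark the members and the thin black line the median of all. In GF minus Veh the members sit at -0.39 to -0.57, left of the median of -0.05, inside the spread of the other miRNAs; in DM minus Veh they sit at -0.06 to -0.09.

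The difference from control depends in size on how arrays are scaled, and GF arrays were brighter on average. The 75th percentile was 2205 ± 261 (SD, n = 4) in Veh, 2027 ± 256 (SD, n = 3) in DM hearts and 2780 ± 529 (SD, n = 3) in GF, with exact permutation p from 0.2 to 0.343 for the 3 comparisons (two-sided, adjusted p = 0.343 for each). Within slide 1 GF exceeded Veh by 835, and within slide 2 by 437. With no scaling the GF minus Veh differences were -0.16 for miR-199a-5p, -0.07 for miR-199a-3p and -0.25 for miR-214, with limma adjusted p from 0.418 to 0.841. At the same time the median over the tested miRNAs went from -0.05 to 0.25. Relative to that median the members stood at -0.40, -0.31 and -0.49 with no scaling and at -0.42, -0.33 and -0.51 with the scaling used here. This scaling shifts all miRNAs of an array alike, so the near match is built in and is no check. The whole split of calls moved with the scaling too: 8 lower and 5 higher as scaled here, 2 and 16 with no scaling, 1 and 15 with the 75th percentile over all probes, 1 and 14 scaled to the hur control spots and 3 and 7 with quantile normalization. With the total gene signal it was 13 lower and 3 higher, and with the authors' deposited values 0 and 2.

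The scanned slides gave like values for this comparison. The close pairs have their arrays on different slides, so this largely reads the same samples again and is no separate evidence. Within slide 1, with 2 arrays per group, GF minus Veh was -0.48 for miR-199a-5p, -0.37 for miR-199a-3p and -0.52 for miR-214. Within slide 2, with 3 arrays per group, it was -0.42, -0.36 and -0.63. With the slide as a block over 15 arrays, a fit that counts the close pairs as independent, all 3 members passed, with limma adjusted p from 0.0163 to 0.0340. With the close pairs as a random block over the same arrays 0 of the 3 passed, with limma adjusted p of 0.0856 (both arms) and 0.0575 (miR-214). The deposited table of filtered miRNAs holds all 3 members, and the authors' deposited table of 35 miRNAs that differ between groups holds 0 of them.

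**Figure D3:**
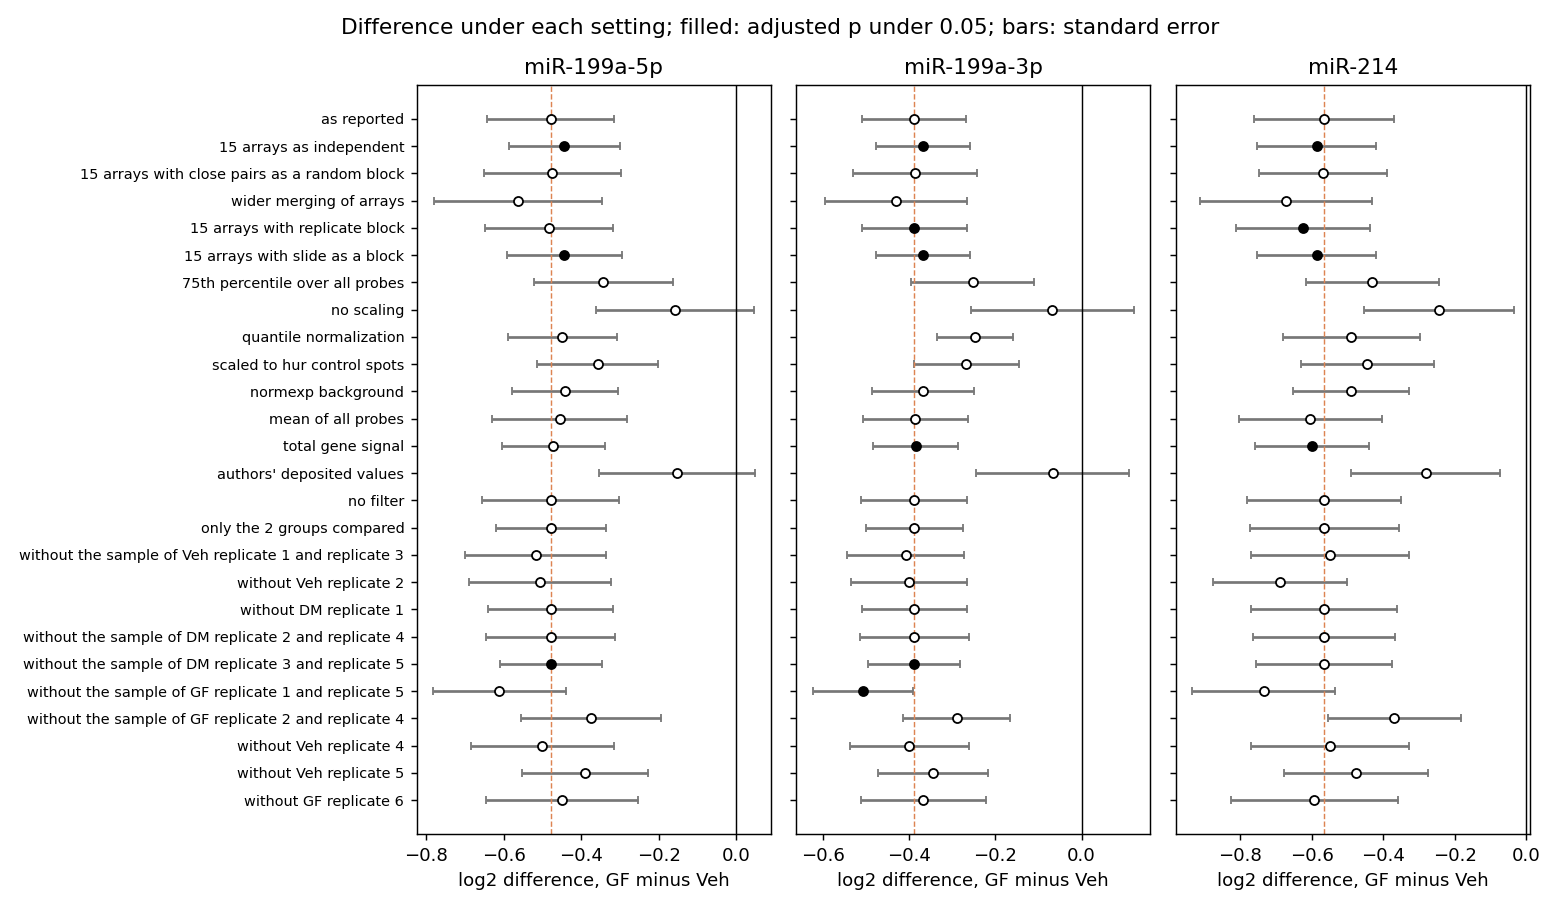
Log2 difference, GF minus Veh (x axis), of each member as reported and under each alternative way of counting, scaling or summarising the arrays (y axis); points are differences, bars standard errors, and filled points have an adjusted p under 0.05. All points lie left of 0; the points nearest to 0 are those with no scaling (-0.16, -0.07 and -0.25) and with the authors' deposited values, which are not scaled between arrays either.

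The comparison of DM with control hearts asks how the members stand in diabetes with steadily high glucose. The differences were -0.09 for miR-199a-5p (SE 0.16, interval -0.46 to 0.27), -0.06 for miR-199a-3p (SE 0.12, -0.33 to 0.21) and -0.06 for miR-214 (SE 0.20, -0.50 to 0.38). The limma adjusted p were 0.812, 0.844 and 0.933. The intervals still allow differences of either sign for each member. Of the tested miRNAs 0% passed in this contrast over distinct samples (limma; 14 at an unadjusted p under 0.05) and 1.82% over 15 arrays, with 0 members in either. One sample carried the sign: without DM 3+5 the 3 differences were 0.08, 0.04 and 0.06. Scaled to the hur control spots they were 0.03, 0.07 and 0.07. Without Veh 5 they were -0.0070, -0.018 and 0.031. Within slide 1 they were -0.01, -0.01 and 0.10, and within slide 2 -0.24, -0.18 and -0.21.

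The comparison of GF with DM hearts is the one the series title names. The differences were -0.38 for miR-199a-5p (SE 0.17, interval -0.78 to 0.0085), -0.33 for miR-199a-3p (SE 0.13, -0.62 to -0.04) and -0.51 for miR-214 (SE 0.21, -0.98 to -0.04). The limma adjusted p were 0.418, 0.408 and 0.408. All 3 GF samples lay below the DM mean for each member, but DM 3+5 lay below GF 1+5 for every member, so the groups overlapped in 3 of 3. All GF samples lay below all DM samples for 12.7% of the tested miRNAs. Of all 165 tested miRNAs, 0% passed over distinct samples (limma, with 18 at an unadjusted p under 0.05) and 3.64% over 15 arrays, with 0 members in either. Without GF 2+4 the differences were -0.28, -0.23 and -0.31. With no scaling the sign turned for both arms of miR-199a (0.06 for 5p, 0.12 for 3p) and miR-214 stood at -0.06. Within slide 1 the differences were -0.47, -0.36 and -0.62, and within slide 2 -0.18, -0.18 and -0.42. This comparison and those with control share samples, so they are not separate evidence on the GF hearts.

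Each member has a second, dimmer probe on the array, read on its own spots. For miR-199a-3p the second probe gave -0.38 in GF minus Veh (SE 0.13, limma adjusted p = 0.0888) and for miR-214 -0.64 (SE 0.20, limma adjusted p = 0.0726). For miR-199a-5p it gave -0.43 (SE 0.19, limma adjusted p = 0.161), on a signal of 6.39 ± 0.23 (SD, n = 4) in control hearts. The second probes thus gave differences of the same sign as the brighter ones, and likewise short of the threshold. Over the 10 samples their signals followed the brighter ones with Pearson r of 0.996 (miR-199a-3p), 0.993 (miR-214) and 0.963 (miR-199a-5p). Both probes of a miRNA read the same labelled RNA, so they check the probe and not the animals.

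**Figure D4:**
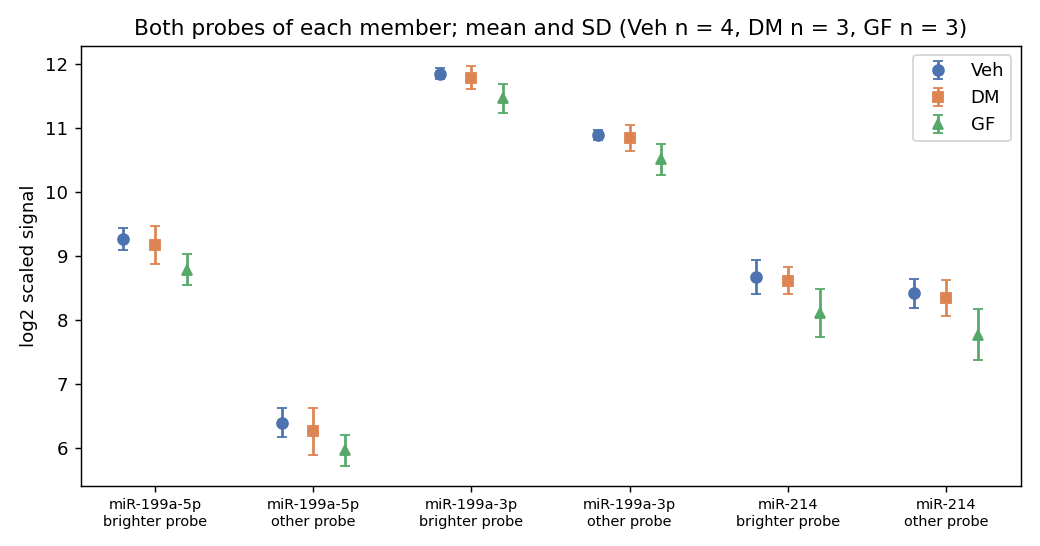
Log2 scaled signal (y axis) of both probes of each member (x axis), as mean and SD over the 4 Veh, 3 DM and 3 GF samples. For each of the 6 probes the GF mean lies below the Veh and DM means; the dimmer probe of miR-199a-5p reads 6.39 in Veh against 9.26 for the brighter one.

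The balance between the members within a sample does not depend on scaling by a constant per array. The log2 ratio of miR-199a-5p to miR-199a-3p, the 2 arms of 1 hairpin, was -2.59 ± 0.09 (SD, n = 4) in Veh, -2.62 ± 0.12 (SD, n = 3) in DM hearts and -2.68 ± 0.02 (SD, n = 3) in GF. These ratios are of probe signals, so only their differences between groups are read. GF was lower than Veh by -0.09 in this log2 ratio, with an exact permutation p of 0.0571, the smallest that 3 against 4 samples allow, and an adjusted p of 0.45 over 9 tests. Without Veh 5, the highest control, the difference was -0.046. All 3 GF samples lay below every control for this ratio, with GF 1+5 (-2.656) just under Veh 1+3 (-2.648). Over single arrays they did not: GF 5 (9.15 for 5p, 11.69 for 3p) had a higher ratio than Veh 3 (9.05 and 11.69). How often other ratios separate in this way was not computed. The ratio of miR-214 to miR-199a-3p was -3.18 ± 0.22 (SD, n = 4) in Veh, -3.18 ± 0.07 (SD, n = 3) in DM hearts and -3.36 ± 0.17 (SD, n = 3) in GF. For this ratio GF minus DM was -0.18 (exact permutation p = 0.1, the smallest that 3 against 3 allow; adjusted p = 0.45) and GF minus Veh was -0.18 (exact permutation p = 0.343). Without Veh 2, the lowest control, GF minus Veh was -0.29, and without Veh 5 it was -0.13. The ratio of miR-214 to miR-199a-5p was -0.59 ± 0.20 (SD, n = 4) in Veh, -0.55 ± 0.11 (SD, n = 3) in DM hearts and -0.68 ± 0.16 (SD, n = 3) in GF, with exact permutation p from 0.4 to 0.857. None of the 9 comparisons passed, and their design could not reach 0.05 in any of them. Within slide 1 and slide 2 the ratio of the 2 arms in GF minus Veh was -0.10 and -0.06, and that of miR-214 to miR-199a-3p was -0.14 and -0.27.

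The members moved together from sample to sample. Across the 10 distinct samples the 2 arms of miR-199a had a Pearson r of 0.984 and a Spearman rho of 1, each with a permutation p of 1e-05, the smallest that 100000 resamples can give (adjusted p = 3e-05 over 3 pairs). miR-214 followed miR-199a-5p with r = 0.905 (permutation p = 0.00019, adjusted p = 0.00021) and rho = 0.842 (permutation p = 0.00376). It followed miR-199a-3p with r = 0.923 (permutation p = 0.00021, adjusted p = 0.00021) and rho = 0.842 (permutation p = 0.00376). Without GF 2+4 and GF 6, the samples farthest from the median, r was 0.993, 0.772 and 0.752 over the remaining 8 samples. With group means removed r was 0.972, 0.808 and 0.834. Over the 7 arrays of slide 1 it was 0.974, 0.921 and 0.966, and over the 8 arrays of slide 2 it was 0.983, 0.920 and 0.965. The slides share the close pairs, so these values are not separate evidence. The samples share array and scaling factor, which can also move 2 miRNAs together; over all 13530 pairs of tested miRNAs the median r was 0.17, with the central 90% from -0.62 to 0.78.

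**Figure D5:**
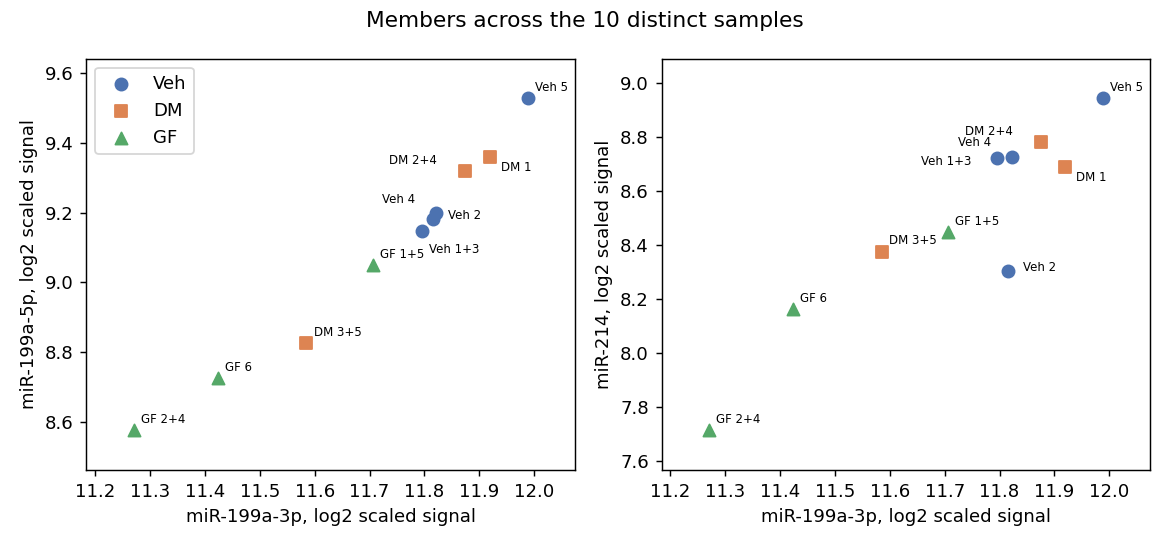
Log2 scaled signal of miR-199a-5p (left, y axis) and miR-214 (right, y axis) against miR-199a-3p (x axes) in the 10 distinct samples, labelled by their array numbers. The points of the 2 arms lie close to a line with r = 0.984; for miR-214 the r is 0.923, and GF 2+4 is the lowest point in both panels, at 7.71 for miR-214.

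The samples with the brightest arrays also read lowest for each member. The scaled signal has that percentile subtracted, so a negative relation between them is partly built in, and it is given as a description with no p. Against the log2 75th percentile of the array, miR-199a-5p had r = -0.63, miR-199a-3p r = -0.72 and miR-214 r = -0.67 over 10 samples, and Spearman rho was -0.35, -0.35 and -0.31. The relation rests on GF 2+4 and GF 6, with 75th percentiles of 3120 and 3050: without them r was 0.06, 0.02 and -0.005. Within slide 1 r was -0.69, -0.76 and -0.79 over 7 arrays, and within slide 2 -0.47, -0.51 and -0.64 over 8. The part of brightness in the members' differences was not tested.

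By mean Pearson r to the 3 members over the 10 samples, the 5 most similar tested miRNAs were miR-125b-5p (0.96), miR-99a (0.93), miR-221 (0.92), miR-152 (0.92) and miR-9 (0.90). They were chosen for that likeness, so it is a description. Each arm of miR-199a ranked the other 1st among 164 tested miRNAs, whereas for miR-214 the arms of miR-199a ranked 2nd (3p) and 5th (5p). In the other direction miR-214 ranked only 7th for miR-199a-3p (r = 0.923) and 10th for miR-199a-5p (r = 0.905). miR-125b-5p, from outside the members, stood nearer to these arms, with r of 0.979 (3p) and 0.978 (5p). miR-125b-5p read 13.57 ± 0.07 (SD, n = 4) in Veh, 13.50 ± 0.15 (SD, n = 3) in DM hearts and 13.32 ± 0.16 (SD, n = 3) in GF. miR-99a read 11.90 ± 0.08 (SD, n = 4), 11.84 ± 0.08 (SD, n = 3) and 11.74 ± 0.14 (SD, n = 3) in the same order. miR-221, known from endothelium and vessel wall, read 7.35 ± 0.23, 7.37 ± 0.20 and 6.97 ± 0.29 (SD, same n). The differences from control in GF were -0.25 (miR-125b-5p), -0.16 (miR-99a), -0.38 (miR-221), -0.27 (miR-152) and -0.54 (miR-9), with limma adjusted p from 0.0822 to 0.227. miR-9, a neural miRNA, was close to the floor in GF, with 1 sample on it.

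Other miRNAs linked with heart stress were listed beside the members. Of 16 on the array 14 were tested, and in GF minus Veh 1 passed as lower and 0 as higher over distinct samples (limma), with a median log2 difference of -0.17 against -0.05 for all tested miRNAs. Of all tested miRNAs 4.85% passed as lower and 3.03% as higher. The listed miRNA that passed was miR-208, encoded in a cardiac myosin gene, at -1.34 (SE 0.28, limma adjusted p = 0.0194). Over 15 arrays 5 passed as lower and 2 as higher, where 23.6% of all tested miRNAs passed as lower and 12.7% as higher. Of the hypoxia list 9 were tested, and miR-20a alone passed, higher by 0.47 (SE 0.11, limma adjusted p = 0.0367), with a list median of 0.13; of all tested miRNAs 3.03% passed as higher. Over 15 arrays 4 of the hypoxia list passed as higher and 1 as lower, against 12.7% and 23.6% of all tested miRNAs. miR-210, the classic hypoxia-induced miRNA, stood at -0.28 (limma adjusted p = 0.104). In DM minus Veh and in GF minus DM 0 members of either list passed.

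Lists that mark cell types tell what else moved in the same hearts. Of the fibroblast and matrix list, miRNAs linked with the cells in which miR-199a and miR-214 are abundant, 7 of 7 were tested and 0 passed over distinct samples in any contrast; over 15 arrays 4 passed as higher in GF than in Veh (miR-21 and the 3 miR-29 members) and 0 as lower, against 12.7% of all tested miRNAs higher and 23.6% lower. Its differences ran from -0.27 (miR-152) to 0.34 (miR-29b), with a median of 0.20, and miR-10a-5p stood at -0.08. Its summed signal ran from 15.82 to 16.43 on the log2 scale in Veh, 16.27 to 16.40 in DM and 16.32 to 16.60 in GF. The leukocyte list had 2 of 5 tested members lower in GF than in Veh, miR-142-5p (-0.64, SE 0.16, limma adjusted p = 0.0367) and miR-146a (-0.46, SE 0.093, limma adjusted p = 0.0194), and a median of -0.46. Of all tested miRNAs 4.85% passed as lower over distinct samples. In the same list miR-223, a myeloid miRNA, stood on the other side at 0.51 (limma adjusted p = 0.0611), and miR-150 at -0.01 (0.966). Over 15 arrays 3 of the leukocyte list passed as lower and 1, miR-223, as higher, against 23.6% and 12.7% of all tested miRNAs. The summed signal ran from 12.60 to 12.67 in Veh, 12.37 to 12.68 in DM and 12.29 to 12.48 in GF.

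The endothelial list had 0 of 3 tested members past the threshold over distinct samples, with a median of -0.37. Over 15 arrays 2 passed as lower, against 23.6% of all tested miRNAs. Its summed signal ran from 14.25 to 14.55 in Veh, 14.11 to 14.36 in DM and 13.95 to 14.06 in GF, and its member miR-222 was at the floor in every group mean. The muscle list had 1 of 5 lower (miR-208) over distinct samples, where 4.85% of all tested miRNAs passed as lower. Over 15 arrays 4 of the muscle list passed as lower, all but miR-1, against 23.6% of all tested miRNAs. The differences of the muscle list ran from -1.34 to -0.14. Its median was -0.32, with sums from 16.92 to 17.38 in Veh, 16.95 to 17.05 in DM and 16.81 to 17.02 in GF. The smooth muscle list had 0 of 2 past the threshold (median 0.13; sums from 13.51 to 14.21 in Veh, 13.85 to 14.01 in DM and 13.79 to 14.15 in GF). The red cell list had 0 of 2 (median -0.35; sums from 12.59 to 12.84 in Veh, 11.75 to 12.59 in DM and 12.17 to 12.54 in GF). The red cell list stood lower still in DM hearts, with a median DM minus Veh difference of -0.58. Over 15 arrays 2 of its 2 members passed as lower in GF minus Veh and 2 in DM minus Veh. Of all tested miRNAs 23.6% passed as lower in the first, and 1.82% passed in the second. Of the liver, neural and pancreas list 2 of 6 were tested, and 0 passed over distinct samples. Over 15 arrays 1, miR-9, passed as lower in GF than in Veh. The sums of this list ran from 7.53 to 7.73 in Veh, 7.54 to 7.68 in DM and 7.44 to 7.59 in GF. For the leukocyte, endothelial and red cell lists the GF and Veh ranges of the sum did not overlap, with GF the lower. Among single tested miRNAs 19.4% showed this. The sums were taken only with the scaling used here. The median GF minus Veh difference over all tested miRNAs was -0.05 with it and 0.25 with no scaling. The endothelial, red cell and smooth muscle sums mostly follow their brightest member. In Veh miR-126 read 14.32 against 9.53 for miR-126* and 7.35 for miR-221, and miR-451 read 12.49 against 9.69 for miR-144. miR-143 read 13.76 against 5.86 for miR-145. The muscle sum mostly follows miR-133b (16.22) and miR-1 (15.90). The fibroblast and matrix sum mostly follows miR-29b (14.93), miR-29a (14.32), miR-21 (13.36) and miR-29c (13.04), with miR-10a-5p at 9.67 and miR-152 at 8.30. The part of these cell types in the members' differences was not tested.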

How the data were processed

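Per the file headers, the deposited array files come from Agilent Feature Extraction 9.5.3.1 and hold background-subtracted intensity per spot, not scaled between arrays. The authors' deposited filtered table holds log2 values, which were recomputed from the total gene signal to within 2.05e-06. The authors' deposited comparison table was used here to see which miRNAs it lists, by name, and none of its p-values is reported.

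Flagged spots were dropped, spots averaged per probe, and values floored at 4.31 (log2) after scaling. To be tested, a miRNA needed a probe above background on at least 3 arrays of 1 group. Groups were compared with limma 3.58.1 (R 4.3.3) over 165 miRNAs and all 3 groups, two-sided, with Benjamini-Hochberg adjustment per contrast and a threshold of 0.05, tested on simulated data. Arrays with a reduced chi-square under 1 were merged. Ratios and brightness were compared with exact permutation tests (scipy 1.17.1, Python 3.11.15), and correlations with 100000 resamples. The files hold no mean spot signal, so the normexp alternative (offset 50) used medians.

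Members, lists, the rule of merging and tests were chosen with earlier results of these data known. Named miRNAs are the members, the 5 most similar miRNAs, list miRNAs past the threshold, and any that share a seed; others are named from the lists after their values were seen. The lists are heart stress, hypoxia, muscle, leukocyte, endothelial, smooth muscle, red cell, fibroblast and matrix, and liver, neural and pancreas. Alternatives changed the counting of arrays, blocks, scaling, background, summary, filter and the samples included.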

Additional observations from a re-analysis of the deposited data

Results flagged for a closer look

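In 7 of 16 series of values checked, 1 of the 4 control samples stood apart from the other 3. Chance alone gives about 1 in 20 for independent series, which these are not. The series of miR-125b-5p, miR-99a and miR-152 were chosen for likeness to the members over these samples. They largely repeat the members' pattern by that choice, so 7 of 16 cannot be set against 1 in 20. Veh 5 was the high one for miR-199a-5p (9.53), miR-199a-3p (11.99), miR-125b-5p (13.67), miR-99a (12.01) and miR-152 (8.54), and for the log2 ratio of miR-199a-5p to miR-199a-3p (-2.46). Its profile over all miRNAs lay nearest to that of DM 1, as given above. Veh 2 was the low one for the log2 ratio of miR-214 to miR-199a-3p (-3.51), where the other controls ran from -3.10 to -3.05. The groups of 3 samples were not checked in this way.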

How the results depend on the processing

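The GF minus Veh difference lay below 0 for all 3 members under all 25 alternatives, from -0.61 to -0.15 for miR-199a-5p, -0.51 to -0.07 for miR-199a-3p and -0.74 to -0.25 for miR-214. It passed under 3, 6 and 4 of them. With 15 arrays as independent or with slide as a block it was -0.44, -0.37 and -0.59. With the total gene signal miR-199a-3p (-0.39) and miR-214 (-0.60) passed. The replicate numbers showed no sign of pairing the samples, though this cannot exclude it. With group means removed, same-numbered arrays of different groups had a mean correlation of 0.013 (from -0.53 to 0.47). For different numbers it was -0.0093 (from -0.54 to 0.60). With the replicate block over 15 arrays miR-199a-3p (-0.39) and miR-214 (-0.63) passed, and 50 miRNAs did against 60 without the block. Leaving out 1 sample at a time gave -0.61 to -0.37 for miR-199a-5p, -0.51 to -0.29 for miR-199a-3p and -0.74 to -0.37 for miR-214. Of these, miR-199a-5p and miR-199a-3p passed without DM 3+5 (limma adjusted p = 0.0471), which changes only the shared spread, and miR-199a-3p without GF 1+5 (0.0447). With wider merging to 7 samples the 3 adjusted p were 0.263.

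DM minus Veh turned positive scaled to the hur control spots (0.035, 0.067 and 0.071) and, for miR-214, with normexp (0.020). Leaving out 1 sample gave -0.19 to 0.076, -0.13 to 0.042 and -0.18 to 0.061. GF minus DM turned positive with no scaling (0.063 for miR-199a-5p, 0.12 for miR-199a-3p) and with the authors' deposited values (0.074 and 0.12). Leaving out 1 sample gave -0.55 to -0.28, -0.45 to -0.23 and -0.68 to -0.31. No scaling and the control spots shift all miRNAs of an array alike; other causes were not tested.

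For the ratios, 15 values turned sign and 165 kept it. Of miR-214 to miR-199a-3p, DM minus Veh was -0.0077 over 15 arrays, -0.058 with wider merging, -0.0011 with quantile normalization, -0.013 with the mean of probes and -0.0093 with total gene signal or the authors' values, and -0.11 to 0.049 without 1 sample. Of miR-199a-5p to miR-199a-3p, GF minus DM was 0.0053 with quantile normalization and DM minus Veh 0.019 with normexp, and -0.067 to 0.034 without 1 sample. Of miR-214 to miR-199a-5p, DM minus Veh ran from -0.060 to 0.094 and GF minus Veh from -0.18 to 0.0060 without 1 sample. Over scalings and summaries, a choice of alternatives added after seeing the data, the correlations moved by over 0.1 in 4 cases and by less in 20, the lowest being 0.76.

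The number of miRNAs past the threshold in GF minus Veh was 13, and 60 over 15 arrays, 57 with slide as a block, 21 with the mean of probes, 2 with the authors' values, and 0 with wider merging or no filter. Without 1 sample it ran from 0 to 28. In DM minus Veh it ran from 0 to 4, and in GF minus DM from 0 to 6. The members' brighter probes were above background on all 15 arrays, so the floor did not enter their values.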
